A study of Mus musculus with 8 samples.

Results

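The SIN3 histone deacetylase complex was described through 10 of its subunit genes, Sin3a, Sin3b, Hdac1, Hdac2, Sap30, Sap130, Ing1, Ing2, Suds3 and Brms1, in RNA sequencing counts of prospermatogonia, the germ cells of the fetal mouse testis. Members were chosen by name as subunits of the complex, a partner that TET1 binds without using its enzyme activity, and all 10 symbols matched 1 row each among the 55401 rows of the deposited count table. There were 8 libraries from E17.5 embryos, 4 labelled KO with the genotype Tet1-/- and 4 labelled WT with the genotype Tet1+/+, all given as batch 1. The kind of Tet1 allele, the strain, the way the cells were isolated and whether each library came from a separate animal are not stated in these sources, so the p-values measure the spread between these libraries.

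SIN3 is a co-repressor. The scaffold proteins SIN3A and SIN3B carry no enzyme activity and no DNA-binding domain of their own. They hold the deacetylases HDAC1 and HDAC2, which remove acetyl groups from histone tails, and are brought to genes by transcription factors, by the PHD fingers of ING1 and ING2, which bind H3K4me3, or by partners such as TET1. Fetal prospermatogonia at this age are arrested in the cell cycle and are laying down new DNA methylation.

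Of the members that passed in the same direction in all 20 alternatives run, Hdac1 had no matched promoter window. The promoter windows of the other 4 are shown first, Sin3a and Ing2 higher and Suds3 and Sap30 lower in the libraries labelled KO. Each runs from 250 bases before to 50 bases after an annotated start, 5′ to 3′ on the strand of the gene (RefSeq, GRCm38.p6). Capitals mark the GC box, GGGCGG, and the CCAAT box, each on either strand. Sin3a is at chr9:57071790-57072089 (plus strand), Ing2 at chr8:47675110-47675409 (minus), Suds3 at chr5:117115944-117116243 (minus) and Sap30 at chr8:57487811-57488110 (minus).
Sin3a: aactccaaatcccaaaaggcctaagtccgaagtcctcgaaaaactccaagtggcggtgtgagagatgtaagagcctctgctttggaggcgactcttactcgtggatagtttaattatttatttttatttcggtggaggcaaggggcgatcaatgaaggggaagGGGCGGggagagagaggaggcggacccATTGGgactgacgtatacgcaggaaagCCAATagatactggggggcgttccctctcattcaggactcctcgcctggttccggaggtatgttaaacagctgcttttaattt
Ing2: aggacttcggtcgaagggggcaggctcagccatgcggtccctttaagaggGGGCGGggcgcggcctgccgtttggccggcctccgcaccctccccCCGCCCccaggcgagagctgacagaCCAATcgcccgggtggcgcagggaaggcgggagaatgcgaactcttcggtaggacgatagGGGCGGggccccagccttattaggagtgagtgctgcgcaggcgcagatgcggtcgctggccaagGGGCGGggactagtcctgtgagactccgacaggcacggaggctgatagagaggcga
Suds3: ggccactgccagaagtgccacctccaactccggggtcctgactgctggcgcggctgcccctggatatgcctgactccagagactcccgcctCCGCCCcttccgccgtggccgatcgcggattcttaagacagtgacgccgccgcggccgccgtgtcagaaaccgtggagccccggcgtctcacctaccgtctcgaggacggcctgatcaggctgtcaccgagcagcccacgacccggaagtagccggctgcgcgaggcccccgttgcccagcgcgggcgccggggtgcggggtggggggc
Sap30: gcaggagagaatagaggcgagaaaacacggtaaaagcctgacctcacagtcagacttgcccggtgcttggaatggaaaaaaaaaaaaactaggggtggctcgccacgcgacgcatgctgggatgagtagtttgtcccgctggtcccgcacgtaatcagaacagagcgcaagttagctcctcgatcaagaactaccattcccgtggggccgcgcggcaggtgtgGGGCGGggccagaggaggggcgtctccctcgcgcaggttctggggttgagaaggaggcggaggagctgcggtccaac

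All 4 windows hold at least 1 GC box, the letters being present in 35.7% of all 32851 promoter windows of this length. The CCAAT letters, found in 37.4% of all windows, occur 2 times in the Sin3a window shown and 1 time in that of Ing2, and they do not occur in the Suds3 and Sap30 windows. CpG dinucleotides number 14 in the Sin3a window shown, 27 in Ing2, 34 in Suds3 and 22 in Sap30, against a median of 7 over all windows. Sin3a has a second annotated start, at chr9:57076126-57076425, whose window is not shown and holds 25 CpG dinucleotides, 3 GC boxes and 3 CCAAT boxes; counts per gene do not show which start was used. RefSeq windows were matched for 7 of the 10 members, 12 windows in all, and each of the 7 genes had a GC box. The letters of the GC box include a CpG, and the share of 35.7% is over windows of any CpG content. It is therefore no matched background for these CpG-rich windows. The E2F motif was first searched on both strands in its strict forms, TTTCCCGC, also TTTCGCGC, also TTTGCCGC and also TTTGGCGC, which 2.26% of all windows hold and 0 of the 7 genes. The looser letters TTTNNCGC, which include the strict forms and were searched only after that result was seen, are present in 5.17% of all windows and were found for Sap30 and Sin3b. The E-box CACGTG, present in 7.15%, was in none of the 12 windows. The palindromic NRF1 motif (0.971% of all windows) was found for Ing1 alone among the 7 genes, and the ETS letters CCGGAAG (8.86%) for Suds3 alone. The shares are per window, whereas a gene was counted when any of its windows held the letters, and some genes have several windows. These are matches of letters and do not show binding.

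Tet1 itself went against the labels. Its level was 30.3, 30.2, 32.8 and 34.2 CPM (library-scaled counts, adjusted by TMM factors, which are trimmed means of log ratios between libraries) in WT 1 to WT 4 and 129, 145, 75.8 and 147 CPM in KO 1 to KO 4. Every library labelled KO was above every library labelled WT, and a count per gene does not show which exons were read. All directions are therefore given by the labels as deposited. Total counts ran from 13820764 to 20115250 per library. Germ cell markers (Ddx4, Dazl and 6 others) summed to between 1194 and 1379 CPM in the libraries labelled WT and between 1284 and 1545 CPM in those labelled KO. These sums cover unequal changes, since 4 of the 8 markers rose, Dazl (0.71), Nanos2 (1.66), Nanos3 (2.10) and Pou5f1, 1 fell, Mael (-1.13), and 3 did not pass (log2 differences, edgeR). Of all genes tested 25.3% rose and 28.2% fell, and of coding genes whose mean log2 CPM reached 4, 46.4% and 18.0%. The mean level of Pou5f1 was 41.1 CPM in the libraries labelled WT and 116 CPM in those labelled KO.

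Of the 10 members, 9 passed the filter on low counts. Among these, 5 were higher (Sin3a, Hdac1, Sap130, Ing1 and Ing2) and 2 lower (Sap30 and Suds3) in the libraries labelled KO by edgeR, at an adjusted p (Benjamini-Hochberg) under 0.05, and Sin3b and Hdac2 did not pass. Over all 24005 genes tested, 25.3% were higher and 28.2% lower, 53.5% in all. Among the 8070 abundant coding genes, those whose mean log2 CPM reached 4, the range in which all 9 tested members lie, 46.4% were higher and 18.0% lower, 64.4% in all, so the members' counts are near those of other abundant coding genes. The same 7 members had groups that did not overlap, as had 48.4% of all genes tested and 60.4% of the abundant coding genes. The median log2 difference was 0.37 over the 9 members, -0.05 over all genes tested and 0.26 over the abundant coding genes.

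**Figure D1:**
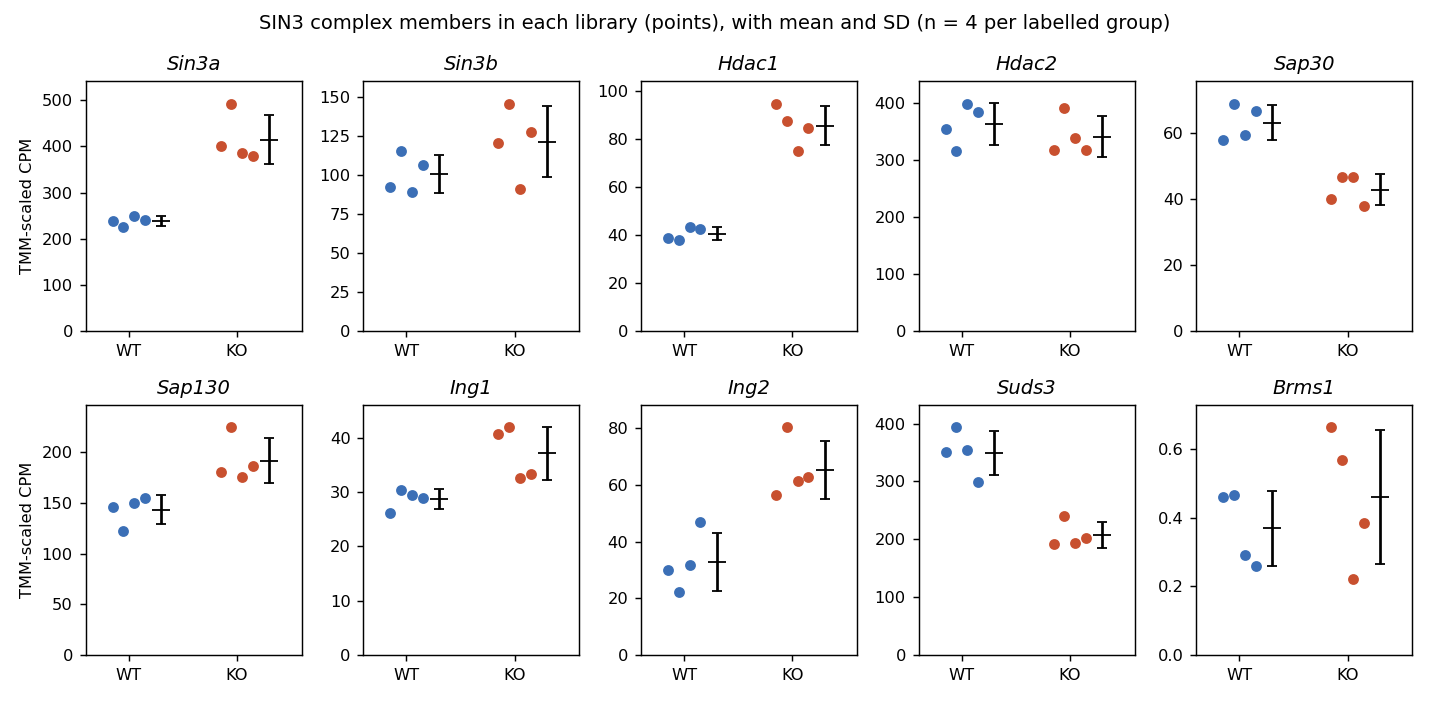
TMM-scaled CPM (vertical axes, from 0) of the 10 members in the 4 libraries labelled WT (blue) and the 4 labelled KO (red), with the mean and SD beside the points. Sin3a, Hdac1, Sap130, Ing1 and Ing2 lie higher in every library labelled KO than in any labelled WT, Sap30 and Suds3 lie lower, and Sin3b, Hdac2 and Brms1 overlap.

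The scaffold genes gave unequal values. Sin3a (ENSMUSG00000042557.14, chromosome 9, 57072040 to 57128366, plus strand, GRCm38) had 238, 225, 249.8 and 241 CPM in WT 1 to WT 4 and 400.1, 492, 386 and 378 CPM in KO 1 to KO 4. The groups were well apart, with KO 2 the highest. Sin3a rose by 0.80 on the log2 scale (SE 0.11, edgeR adjusted p = 5.24e-05), a ratio of 1.74 between the mean levels. Sin3b (ENSMUSG00000031622.16, chromosome 8, 72723285 to 72758201, plus strand), the second scaffold, had 92.7, 116, 89.5 and 107 CPM in WT 1 to WT 4 and 121, 146, 91.2 and 128 CPM in KO 1 to KO 4. The groups overlapped, since KO 3 lay among the libraries labelled WT. The log2 difference of Sin3b was 0.27 (95% confidence interval -0.03 to 0.57, edgeR adjusted p = 0.123), and it passed without KO 3 at 0.41 (adjusted p = 0.0142) and with limma-voom at 0.34 (adjusted p = 0.0236).

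The deacetylase genes also gave unequal values. Hdac1 (ENSMUSG00000028800.15, chromosome 4, 129516104 to 129542713, minus strand) had 38.7, 37.9, 43.3 and 42.5 CPM in WT 1 to WT 4 and 94.6, 87.7, 75.1 and 84.5 CPM in KO 1 to KO 4. The lowest library labelled KO was far above the highest labelled WT. Hdac1 rose by 1.07 (SE 0.11, edgeR adjusted p = 6.04e-06), a ratio of 2.10 between the mean levels and the largest difference among the 9 members tested. Hdac2 (ENSMUSG00000019777.16, chromosome 10, 36974544 to 37001889, plus strand) had 354, 315, 398 and 384 CPM in WT 1 to WT 4 and 317, 391, 338 and 317 CPM in KO 1 to KO 4. The groups covered nearly the same range. Its log2 difference was -0.09 (95% confidence interval -0.33 to 0.15, edgeR adjusted p = 0.508).

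The ING genes encode the readers of H3K4me3 in the complex. Ing2 (ENSMUSG00000063049.4, chromosome 8, 47667178 to 47675556, minus strand) had 30.1, 22.3, 31.8 and 47.1 CPM in WT 1 to WT 4 and 56.6, 80.3, 61.6 and 62.7 CPM in KO 1 to KO 4. WT 4 was the library labelled WT nearest to the other group, and the groups did not overlap. Ing2 rose by 0.99 (SE 0.19, edgeR adjusted p = 0.000779). Ing1 (ENSMUSG00000045969.8, chromosome 8, 11555571 to 11563251, plus strand) had 26.1, 30.3, 29.4 and 28.9 CPM in WT 1 to WT 4 and 40.7, 41.9, 32.6 and 33.4 CPM in KO 1 to KO 4. The gap between the groups was narrow, with KO 3 and KO 4 just above WT 2. Ing1 rose by 0.37 (SE 0.12, edgeR adjusted p = 0.0196), and the call was lost without WT 1 (adjusted p = 0.0628). Sin3b, Sap30, Ing1 and Ing2 lie on the same chromosome, at separate places.

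The genes of the structural subunits went both ways. Suds3 (ENSMUSG00000066900.11, chromosome 5, 117091680 to 117116113, minus strand) encodes the mouse SDS3 protein, which stabilises the bond between SIN3 and the deacetylases. It had 351, 393, 355 and 299.6 CPM in WT 1 to WT 4 and 192, 240.2, 194 and 203 CPM in KO 1 to KO 4. All libraries labelled KO were below all labelled WT, and Suds3 fell by 0.75 on the log2 scale (SE 0.11, edgeR adjusted p = 0.000124), a ratio of 0.593 between the mean levels. Sap30 (ENSMUSG00000031609.3, chromosome 8, 57482707 to 57487860, minus strand), whose product bridges SIN3 and other co-repressors, had 58.0, 69.0, 59.4 and 66.7 CPM in WT 1 to WT 4 and 40.2, 46.9, 46.9 and 37.9 CPM in KO 1 to KO 4. Its groups did not overlap either, and it fell by 0.56 (SE 0.11, edgeR adjusted p = 0.00111). Sap130, which encodes a large subunit bound to the C-terminal part of SIN3A, had 146, 123, 150.3 and 154 CPM in WT 1 to WT 4 and 181, 225, 176 and 186 CPM in KO 1 to KO 4. It was higher in every library labelled KO and rose by 0.42 (SE 0.11, edgeR adjusted p = 0.00643).

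Brms1, a relative of Suds3, could not be measured in the same way. It had 9, 8, 6 and 4 counts in WT 1 to WT 4 and 10, 10, 3 and 6 counts in KO 1 to KO 4, and it was removed by the filter. In GENCODE M21, 79% of its annotated exon bases are shared with a gene model on the same strand, AC124502.3, and the sources do not say how reads in shared exons were counted. Its low count is therefore no measure of its level. Without a low-count filter its log2 difference was 0.37 (SE 0.64, edgeR adjusted p = 0.712).

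**Figure D2:**
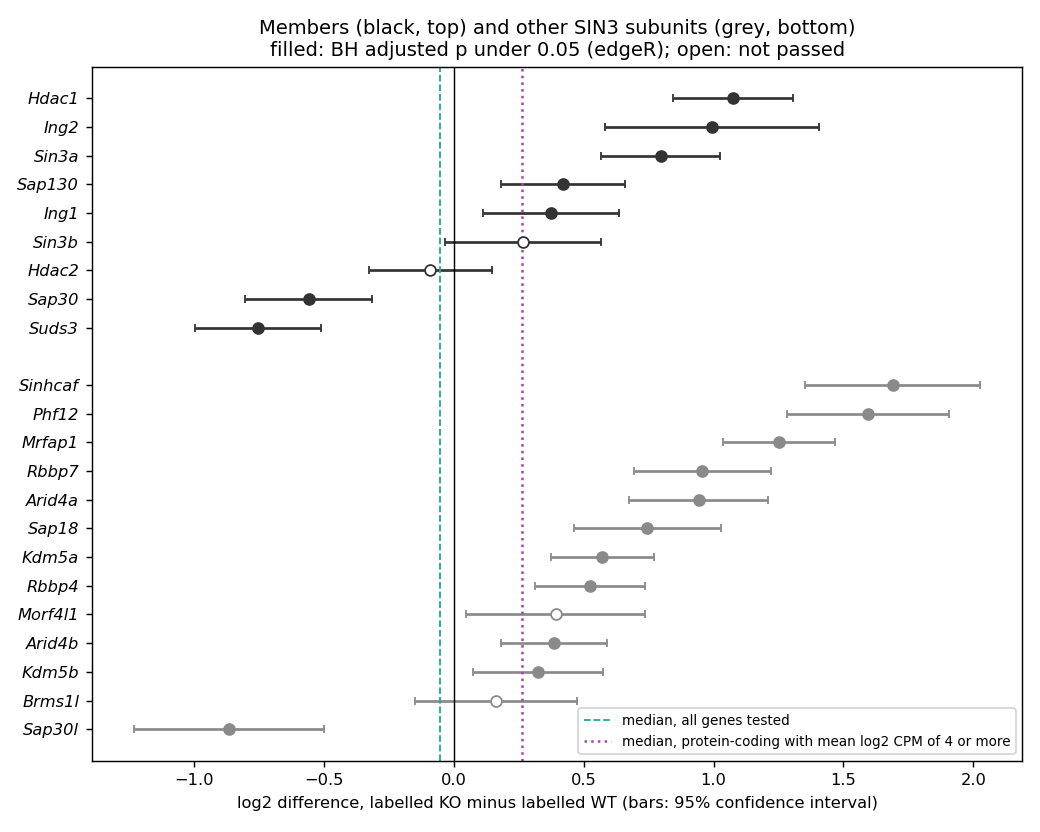
Log2 difference, labelled KO minus labelled WT, with its 95% confidence interval, for the 9 members tested (black) and 13 other SIN3 subunit genes (grey); filled points passed edgeR at an adjusted p under 0.05, and vertical lines give the medians of all genes tested (-0.05) and of abundant coding genes (0.26). Members run from Suds3 at -0.75 to Hdac1 at 1.07, and the other subunits from Sap30l at -0.86 to Sinhcaf at 1.69.

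Scaled to kilobases of annotated exon, the order of the members differed between the groups. The divisor is all annotated exon bases of a gene, from 1178 for Sap30 to 11321 for Suds3. The order between genes, and the length-scaled shares given below, therefore depend on the annotation. Unscaled, the mean level in the libraries labelled WT was 362.7 CPM for Hdac2, 349.5 CPM for Suds3 and 63.3 CPM for Sap30. In the libraries labelled WT, Hdac2 was the most abundant at 81.1 ± 8.16 CPM per kilobase (SD, n = 4), followed by Sap30 at 53.7 ± 4.54, Sin3a at 44.3 ± 1.92 and Suds3 at 30.9 ± 3.39 (SD, n = 4 each), and none of these overlapped its neighbour. Sap130, Sin3b, Hdac1 and Ing2 followed between 15.8 and 10.9 CPM per kilobase, each overlapping the next, and Ing1 had 8.40 ± 0.537 (SD, n = 4). In the libraries labelled KO, Sin3a at 76.9 ± 9.80 and Hdac2 at 76.2 ± 7.89 CPM per kilobase (SD, n = 4 each) overlapped at the top. Sap30 followed at 36.4 ± 3.94 (SD, n = 4), apart from both neighbours. Hdac1 (24.8), Ing2 (21.6), Sap130 (21.1) and Suds3 (18.3) each overlapped the next, down to Sin3b (16.5 CPM per kilobase). Sin3b did not overlap Ing1 (10.9 CPM per kilobase). By mean level Hdac1 was at place 7 with the labelled WT libraries and at place 4 with the labelled KO libraries, and Suds3 at places 4 and 7. The summed level of the 10 members, unscaled for length, was 1332 to 1407 CPM in the libraries labelled WT and 1401 to 1751 CPM in those labelled KO, with KO 2 alone above 1443.

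**Figure D3:**
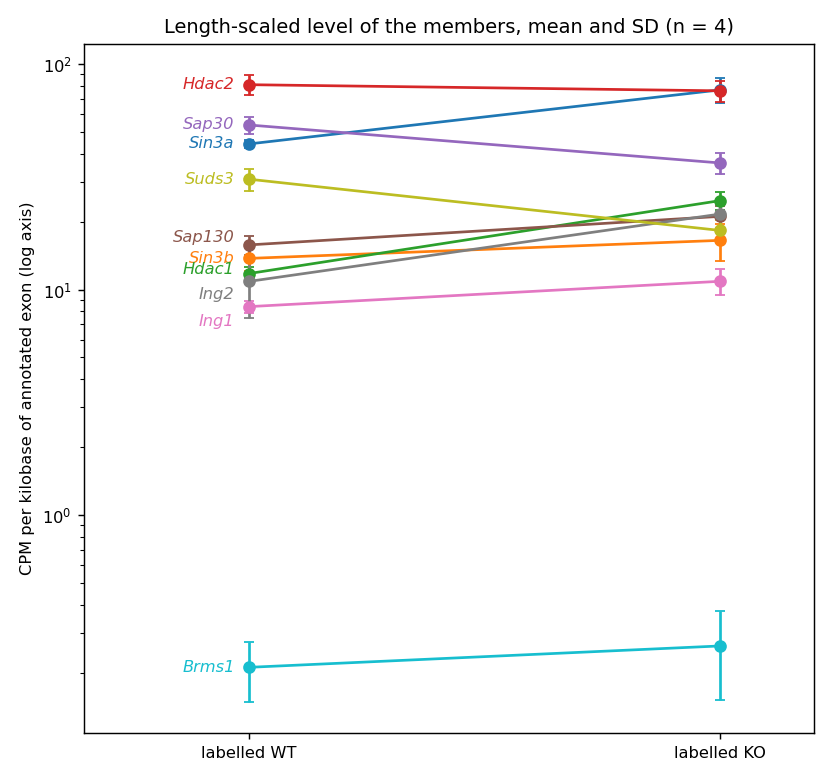
Mean level of each member in CPM per kilobase of annotated exon (log axis) in the libraries labelled WT and KO, with the SD over 4 libraries. The lines of Sin3a, Hdac1 and Ing2 run up most, those of Sap130, Ing1 and Sin3b run up less, and those of Suds3 and Sap30 run down. Sin3a reaches Hdac2, and Brms1 stands apart at 0.211 and 0.262.

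Pairs of close relatives were compared by the ratio of their counts within each library, which does not depend on how libraries are scaled. Hdac1 made up 12.4% to 13.5% of the length-scaled Hdac1 plus Hdac2 level in the libraries labelled WT and 22.4% to 28.0% in those labelled KO. The log2 ratio of Hdac1 to Hdac2 counts was -3.16 ± 0.07 and -1.99 ± 0.21 (SD, n = 4 each), a difference of 1.16 (exact two-sided permutation p = 0.0286, adjusted p = 0.0714 over 5 pairs). Sin3a made up 72.6% to 79.2% of the length-scaled Sin3a plus Sin3b level in the libraries labelled WT and 80.1% to 85.3% in those labelled KO, and its log2 ratio differed by 0.54 (exact permutation p = 0.0286, adjusted p = 0.0714). Neither pair overlapped between the groups, and 0.0286 is the smallest p that the 70 splits can give. With 2 of the 5 pairs at that value, the adjustment over 5 pairs cannot reach the threshold, and no pair passed it. Without WT 4, where the ratio of Ing1 to Ing2 also reached the smallest p, that pair, Hdac1/Hdac2 and Sin3a/Sin3b passed (exact permutation, adjusted p = 0.0476 each). For Ing1 to Ing2, WT 4 (-0.70) was the only library labelled WT within the labelled KO range (-0.94 to -0.48). Leaving WT 4 out removed that overlap by itself, and Hdac1/Hdac2 and Sin3a/Sin3b then passed through the adjustment, which adds no support for any of these pairs. The log2 ratio of Ing1 to Ing2 differed by -0.67 with overlap (exact permutation p = 0.0571, adjusted p = 0.0952). Sap30 and its relative Sap30l, which both fell, had a ratio that differed by 0.27 with overlap (exact permutation p = 0.200, adjusted p = 0.250). For Brms1 and Brms1l the difference was 0.10 (exact permutation p = 0.771, adjusted p = 0.771), with the limit on Brms1 given above.

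**Figure D4:**
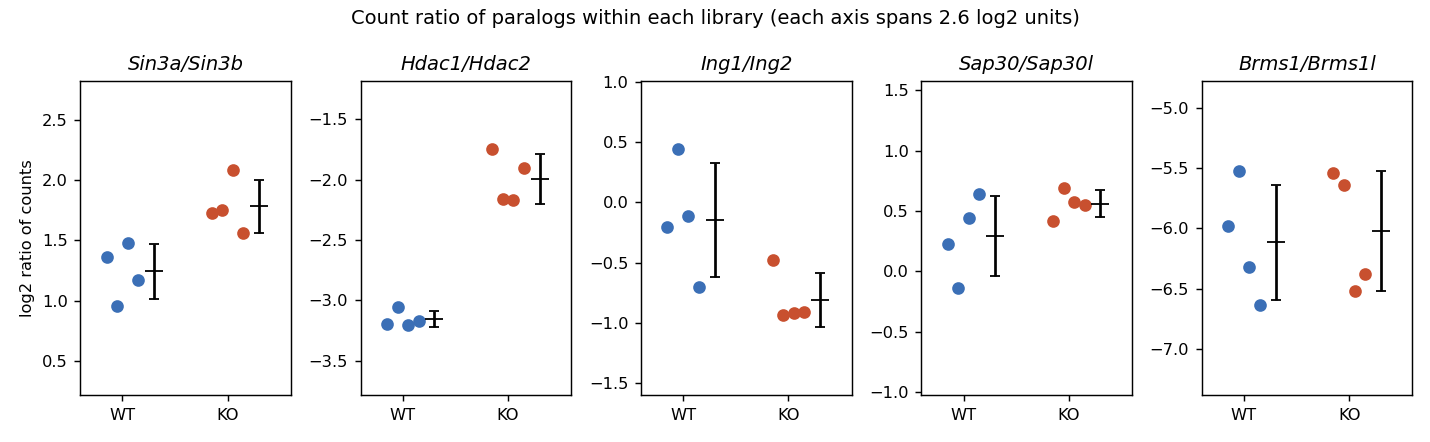
Log2 ratio of the counts of 2 related genes in each library (points), with the mean and SD over the 4 libraries of each labelled group; the axes differ in position and have the same span. The Hdac1/Hdac2 and Sin3a/Sin3b ratios are higher in every library labelled KO, and the other 3 pairs overlap.

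Other genes of the complex were taken from a list of 14, of which 13 were tested. Among these, 10 were higher, 1 lower and 2 did not pass (edgeR, Benjamini-Hochberg), and their median log2 difference was 0.57, beside -0.05 for all genes tested and 0.26 for abundant coding genes. Of abundant coding genes, 46.4% were higher and 18.0% lower, and of all genes tested 25.3% and 28.2%. The largest rise was that of Sinhcaf, which encodes a SIN3-associated factor, from 8.30, 9.82, 9.10 and 10.4 CPM in WT 1 to WT 4 to 28.9, 35.7, 23.3 and 33.2 CPM in KO 1 to KO 4. Its groups were far apart, with a log2 difference of 1.69 (SE 0.16, edgeR adjusted p = 3.68e-06). Phf12 (1.59), Morf4l1 (0.39) and Mrfap1 (1.25) belong to a SIN3B-containing form that is found on transcribed genes. Of these, Phf12 and Mrfap1 rose, and Morf4l1 did not pass (edgeR adjusted p = 0.0531), with KO 3 among the libraries labelled WT. Morf4l1 passed in 8 of the 20 alternatives run, 1 of them the looser threshold of 0.1. Without KO 3 it passed at 0.57 (edgeR adjusted p = 0.00224) and without WT 3 at 0.48 (edgeR adjusted p = 0.0440). It also passed with DESeq2 (adjusted p = 0.0331).

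The histone-binding subunit genes Rbbp7 (0.96) and Rbbp4 (0.53) rose, as did Arid4a (0.94) and Arid4b (0.38), whose products carry an ARID domain, and the H3K4 demethylase genes Kdm5a (0.57) and Kdm5b (0.32), these being log2 differences. Kdm5b lost its call without KO 2, WT 1 or WT 2 (edgeR adjusted p = 0.0624, 0.0847 and 0.0757) and with the replicate number as a block (0.0751). Both Arid4b (adjusted p = 0.172, 0.143 and 0.169) and Kdm5b (0.532, 0.304 and 0.151) lost their call in edgeR when scaled by the upper quartile or by ribosomal protein genes and in limma after cyclic loess. Sap18 rose by 0.74, but it has a close copy, Sap18b, and reads of the 2 genes may not be assigned apart. Sap30l fell by 0.86, from 49.5, 75.8, 43.8 and 42.7 CPM in WT 1 to WT 4 to 30.0, 29.1, 31.4 and 25.8 CPM in KO 1 to KO 4, with WT 2 far above the others of its group. Brms1l had a log2 difference of 0.16 (edgeR adjusted p = 0.365). Sap25, with 76.5% of its exon bases shared with another gene model on its strand, was not tested. Beside Tet1, Ogt, which encodes a TET-bound sugar transferase that also binds SIN3A, rose by 1.51, Tet3 fell by 1.10, and Tet2 had a log2 difference of 0.24 (edgeR adjusted p = 0.0838).

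The level of Sin3a over the 8 libraries was most like those of Prkaca (Pearson r = 0.995), Ik (0.995) and Otud7b (0.995) among 7994 abundant coding genes outside the lists, on the log2(CPM + 1) scale. Prkaca went from 22.8 ± 1.49 to 42.1 ± 5.98, Ik from 189 ± 7.01 to 261 ± 16.5 and Otud7b from 85.7 ± 3.96 to 134 ± 11.2 CPM (SD, n = 4 each). The 8 libraries share the split into labelled groups, and these correlations are given as a description. Among the members, r with Sin3a was 0.97 for Hdac1, 0.94 for Sap130, 0.91 for Ing2 and 0.88 for Ing1, and it was -0.85 for Sap30 and -0.86 for Suds3, over the same 8 libraries. It was 0.59 for Sin3b and -0.10 for Hdac2, the 2 members that did not pass.

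Other markers moved with the groups or with 1 library. All 10 proliferation markers, led by Top2a and Mki67, were higher, summing to 527 to 699 CPM in the libraries labelled WT and 2211 to 2330 CPM in those labelled KO. The 6 Leydig cell markers, led by Cyp17a1 and Cyp11a1, summed to 1753 CPM in KO 4 and to 12.9 to 28.7 CPM in the other 7 libraries, and the 7 Sertoli cell markers to 95.8 CPM in KO 4 and 16.5 to 29.0 CPM in the others. Most of that Sertoli sum in KO 4 was Inha (58.3 CPM, against 1.23 to 2.36 CPM in the other 7 libraries) and Gata4 (17.4 CPM). Over the groups Inha (3.51), Wt1 (1.13) and Amh passed as higher and Dhh (-0.83) as lower (log2 differences, edgeR), and 3 did not pass. The mean level of Amh was 1.65 CPM in the libraries labelled WT and 3.78 CPM in those labelled KO. Without KO 4 the 7 passing members passed in the same direction, with log2 differences of 0.86 for Sin3a, 1.11 for Hdac1, 0.46 for Sap130, 0.45 for Ing1, 1.04 for Ing2, -0.48 for Sap30 and -0.72 for Suds3. The 6 macrophage markers summed to 13.8 to 16.6 against 5.62 to 10.7 CPM, the 6 erythroid markers to 18.2 to 23.0 against 12.8 to 21.4 CPM, the 5 endothelial markers to 57.1 to 68.8 against 56.0 to 69.8 CPM and the 7 peritubular and stromal markers to 110.2 to 156 against 117 to 155 CPM in the libraries labelled WT and KO. The endothelial sums cover opposite changes, as Pecam1 rose (1.00) and Cdh5 (-0.64), Kdr (-1.31) and Tek (-0.48) fell, all 4 that were tested. Of 4 macrophage markers tested 0 were higher and 3 lower, of 4 erythroid markers 1 and 1, and of 7 peritubular and stromal markers 2 and 1. The macrophage sums fell mostly through Fcgr1 (mean 6.76 CPM labelled WT, 0.726 labelled KO), and Cd68 (3.85 and 5.12 CPM) did not pass. The erythroid sums were mostly Alas2, which fell (18.5 and 9.25 CPM), while the globin gene Hba-a1 rose (0.541 and 1.35 CPM). Means of the globin genes Hbb-bs, Hbb-bt and Hba-a2 were also higher with the label KO, without a call. All these marker counts stand beside 25.3% higher and 28.2% lower over all genes tested. No marker of these lists was at 0 in all libraries of a group. The part of proliferation and of these cell types in the members' differences was not tested, and in bulk libraries fewer cells of a type and less RNA per cell cannot be told apart.

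The smaller rises depended on how the libraries were scaled. Upper-quartile scaling moved the median log2 difference of all genes by -0.24 and scaling on ribosomal protein genes by -0.17, and the number of members that rose was then 3. With the upper quartile 16.8% of all genes tested rose and 37.0% fell, and with the ribosomal genes 16.9% rose and 31.6% fell. The number of members that rose was also 3 with cyclic loess, where 25.5% of all genes tested rose and 24.6% fell. Sap130 lost its call under these 3 settings (edgeR or limma adjusted p = 0.150, 0.0846 and 0.0993), and so did Ing1 (0.337, 0.252 and 0.388). Hdac2 passed as lower with upper-quartile scaling (-0.33, edgeR adjusted p = 0.0178) and with cyclic loess (-0.31, limma adjusted p = 0.00256). Sin3a, Hdac1, Ing2, Suds3 and Sap30 kept their direction and call in all 20 alternatives run.

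**Figure D5:**
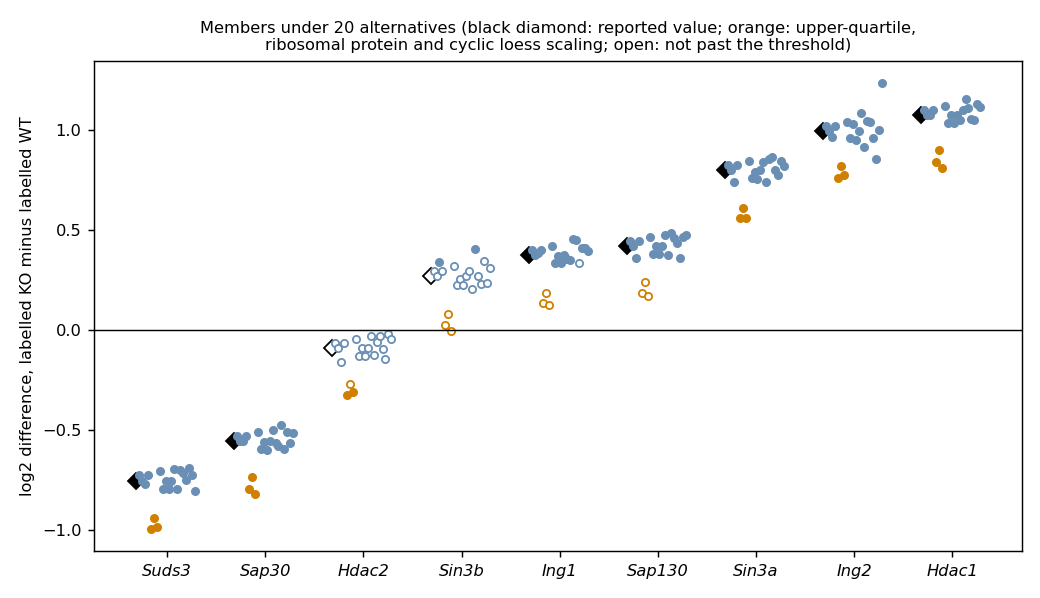
Log2 difference of the 9 tested members, labelled KO minus labelled WT, as reported (black diamond) and under 20 alternatives (circles; orange for upper-quartile, ribosomal protein and cyclic loess scaling; open where the threshold was not passed). Sap130 and Ing1 stay above 0 and lose their call in the orange settings, and Sin3b reaches -0.01.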

How the data were processed

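Libraries were prepared from 5 ng of TRIzol-extracted total RNA after removal of ribosomal RNA, with a kit that adds unique molecular identifiers (UMIs), per the labels' protocols. Values in the deposited table are raw whole-number counts, 1 row per gene. Trim Galore, STAR, featureCounts 1.5.0, edgeR, DESeq2 and build mm10 are named, with no role, per the submitters' processing notes. UMI collapsing and the strand setting are not given in the sources used, so overlapping genes can share or lose reads. Identifiers were matched to GENCODE M21 without their version (55141 of 55401). Exon lengths and positions come from it.

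Counts were fitted over all genes with edgeR 4.0.16 in R 4.3.3 (filterByExpr, TMM, quasi-likelihood, genotype as the only term), with Benjamini-Hochberg adjustment over the 24005 genes tested and a threshold of 0.05. Ratios of paired genes used counts plus 0.5 and an exact permutation over 70 splits. Replicates of a group differed beyond counting noise (chi-square per degree of freedom 6.54 to 22.8). Alternatives were DESeq2 1.42.0, limma 3.58.1, other scalings and filters, a replicate block, coding genes only, a threshold of 0.1 and leaving out each library. The pipeline was tested on simulated data. The members, lists and tests were chosen with earlier results of these data known. All members, Tet1 and all other SIN3 subunits are named, and from further lists the 4 genes with the lowest p and those that passed in the less common direction, the 2 most abundant markers and the 3 genes most like Sin3a. Further cell type markers were named after their values were seen. One gene that this rule names is not reported here.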

Additional observations from a re-analysis of the deposited data

Results flagged for a closer look

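In 2 of the 56 groups of 4 libraries examined, 1 library stood far from the other 3 by Dixon's test at the 95% level; chance gives about 1 in 20. Morf4l1, which encodes an H3K36 methylation reader, had 74.9 CPM in KO 3 and 122 to 127 CPM in the other libraries labelled KO. The log2 ratio of Ing1 to Ing2 was -0.48 in KO 1 and -0.94 to -0.91 in the other libraries labelled KO. The difference of this ratio between the groups was -0.78 without KO 1 and -0.67 with all libraries.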

How the results depend on the processing

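The number of members that rose was 5, and 3 when libraries were scaled by the upper quartile, by ribosomal protein genes or by cyclic loess; in the other alternatives it was 4 to 6, and the number that fell was 2 or 3. Leaving out each library gave 4 to 6 higher and 2 lower members. Values that changed sign were those of Sin3b with cyclic loess (-0.0052) and of Brms1l by the upper quartile (-0.0793), by ribosomal protein genes (-0.0105) and by cyclic loess (-0.0761), none past the threshold; the cause was not tested. When each library was left out, the paired ratios differed by 0.44 to 0.61 for Sin3a/Sin3b, 1.08 to 1.22 for Hdac1/Hdac2, -0.85 to -0.47 for Ing1/Ing2, 0.12 to 0.38 for Sap30/Sap30l and -0.077 to 0.295 for Brms1/Brms1l, the last with both signs. Without WT 4 the first 3 passed (exact permutation, adjusted p = 0.0476), where 3 pairs were at the smallest p. WT 4 was the only library labelled WT within the labelled KO range of Ing1/Ing2, so leaving it out removed the overlap of that pair. The labels do not say that replicate numbers pair the libraries. The library names of KO 1 and WT 1 share a number whose meaning is not stated, and those of the other same-numbered libraries do not. The deviations of same-numbered libraries correlated between -0.21 and 0.15, the highest being KO 1 with WT 1. With the replicate block 5 members were higher and 2 lower, 9 other subunits were higher, Kdm5b having lost its call, and 1 lower, and sign flips of the numbered ratios cannot give a p below 0.125 (Hdac1/Hdac2 difference 1.16). Counts of 3 allow no more than 0.145 to 0.221 CPM per library. Sap25, at 0 to 0.290 CPM, lay near or under this, and Brms1, at 0.221 to 0.6625 CPM, at or above it.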

Other observations

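Transcription factors and co-repressors that can bring SIN3 to DNA were examined as a list of 18. With edgeR and Benjamini-Hochberg adjustment 10 were higher and 2 lower, while 6 did not pass, and the list had a median log2 difference of 0.49 beside 0.26 for abundant coding genes. Among abundant coding genes 46.4% were higher and 18.0% lower, shares near those of this list. Among all genes tested 25.3% were higher and 28.2% lower, and some genes of the list lie below the abundance of that coding set. Tgif1, a homeodomain repressor of TGF-beta and NODAL responses, rose by 2.71. Mnt (1.21), a MAX partner that binds SIN3, and Foxk2 (0.90), a forkhead factor that recruits it, also rose. The 2 that fell were Klf10 (-0.49) and Mxd1 (-0.39), the latter also a SIN3-binding MAX partner.

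Of 11 genes of other complexes built on class I deacetylases, 6 were higher and 2 lower, while 3 did not pass, and the median was 0.28, near the median of 0.26 and the shares of 46.4% higher and 18.0% lower of abundant coding genes. Over all genes tested 25.3% were higher and 28.2% lower, and some of the 11 lie below the abundance of that coding set. Hdac3 rose by 0.87 and Rcor1, a scaffold of the CoREST complex, by 0.69. Kdm1a, the demethylase of CoREST, fell by 0.51 and Mideas, the scaffold of a further HDAC1 and HDAC2 complex, by 0.63. Of the 3 ING genes outside SIN3, whose products act in acetyltransferase complexes, Ing5 rose by 0.64, and Ing3 (0.20, edgeR adjusted p = 0.135) and Ing4 (0.26, adjusted p = 0.387) did not pass.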
